A study of Mus musculus with 15 samples.

Results

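The genes described here are 36 genes of the integrated stress response, the cellular program run by the transcription factor ATF4. They were followed in the left ventricle of mice with point mutations in Rbm20, a gene of a muscle RNA-binding protein that regulates splicing of titin and other heart transcripts. They were listed by name: 7 transcription factors and regulators, 11 enzymes of serine, one-carbon and amino acid synthesis, 9 amino acid transporters, 3 secreted factors and 6 feedback and other targets. All 36 had a row among the 40174 gene symbols of the count tables, and 33 of them were among the 17588 genes with enough counts to be tested.

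In this response, kinases that sense misfolded protein, amino acid shortage, viral RNA or mitochondrial stress phosphorylate the initiation factor eIF2. General translation falls, while the ATF4 messenger, whose upstream reading frames hold its translation down in unstressed cells, is translated more. ATF4 then switches on genes that supply amino acids, one-carbon units and glutathione precursors, together with factors that end the response. In heart muscle the program is best known from mitochondrial disease models. Messenger levels such as those measured here do not show the phosphorylation of eIF2 or the amount of ATF4 protein.

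Total RNA was sequenced from left ventricles of C57BL/6 mice aged 2 months. G-line mice carried the S639G allele and A-line mice the S637A allele of Rbm20. The groups were G-line HOM (labelled Rbm20 S639G -/-), G-line HET (Rbm20 S639G +/-), A-line HOM (Rbm20 S637A -/-), A-line HET (Rbm20 S637A +/-) and wild type (WT), with 3 labelled libraries each. The study asks how these alleles act in cardiac remodelling. Of the A-line HOM libraries, replicates 2 and 3 were identical in all 40174 symbols to the same-numbered WT replicates. Each of these was used once, as WT, so 13 libraries remained, with a single one for A-line HOM. Which name is right is not settled by the labels, and results against WT and for A-line HOM rest on this choice. Nothing in the labels ties each library to its own animal, so the p-values reflect spread among libraries that may be technical. In tissue RNA, fewer cells of a type and less RNA per cell cannot be told apart.

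Libraries held 20324529 to 29436407 counts in G-line HOM, 23714906 to 28121438 in G-line HET, 17507813 in A-line HOM, 12959087 to 17448328 in A-line HET and 25279202 to 26549906 in WT. Gene counts do not show a point mutation, and Rbm20 itself stood at 367 to 495 CPM (counts scaled to library size with TMM factors) in the mutant libraries and 357 to 419 CPM in WT. All 8 listed markers of heart muscle were abundant in every library, but most of them do not separate ventricle from atrium. Summed markers of fibroblasts stood at 2520 to 3500 CPM in G-line HOM, 1420 to 2460 in G-line HET, 1650 in A-line HOM, 1460 to 2370 in A-line HET and 981 to 1730 in WT. Macrophage markers overlapped, at 222 to 323 CPM in G-line HOM and 248 to 347 CPM in WT. Summed adipocyte markers stood at 307 to 379 CPM in G-line HOM, 324 to 345 in G-line HET, 285 in the A-line HOM library and 262 to 338 in A-line HET, all below 448 to 485 CPM in WT. Most of that sum was a single gene, Fabp4, at 234 to 347 CPM in the mutant libraries and 413 to 452 CPM in WT. Endothelial markers were at 680 to 1060 CPM in G-line HOM, across the WT range, and at 586 to 718 in G-line HET, 661 in the A-line HOM library and 662 to 811 in A-line HET, below 822 to 846 CPM in WT. The wide G-line HOM range came largely from Vwf, at 89.4 to 355 CPM there and 48.8 to 119 CPM in WT. In G-line HOM, Cdh5, Tie1 and Emcn were below WT in every library, and Pecam1, Kdr and Egfl7 overlapped WT. The share of mitochondrial ribosomal RNA was 10.8 to 13.5% in G-line HOM, 15.4 to 16.7% in G-line HET, 15.1% in A-line HOM, 13.2 to 17.1% in A-line HET and 20.2 to 23.4% in WT. The part of these differences in the results below was not tested. G-line HOM replicate 1, A-line HET replicate 3 and WT replicate 2 held the atrial muscle transcript Myl7 at 45.8, 240 and 524 CPM, against at most 3.43 CPM elsewhere. These libraries also held the adipocyte transcript Adipoq at 3.159, 3.085 and 11.01 CPM, against at most 0.2915 CPM elsewhere. G-line HOM replicate 1 and A-line HET replicate 2 held the clock transcript Arntl at 24.6 and 29.04 CPM, against at most 5.28 CPM elsewhere.

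In homozygous S639G hearts Atf4 itself and many of its targets were higher than in WT, while 4 genes of the program were lower. Of the 33 tested genes, 17 rose and 4 fell at an adjusted p under 0.05, and 12 were not called. The 17 include Slc7a11, which entered the test only through mutant libraries. Among all tested genes 26.4% were called in this comparison, 13.1% higher and 13.3% lower. The median log2 fold change was 0.82 over the 33 genes and 0.0070 over all genes. Libraries of the groups did not overlap for 24 of the 33 genes, 20 above and 4 below WT, a separation seen in 41.7% of all tested genes. Leaving the 2 shared libraries out kept 11 genes higher and 3 lower. Counting them as A-line HOM, which leaves a single WT library, gave 1 higher, Slc7a11, which had passed the count filter only through mutant libraries, and 3 lower, Cth, Slc7a1 and Vldlr.

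**Figure D1:**
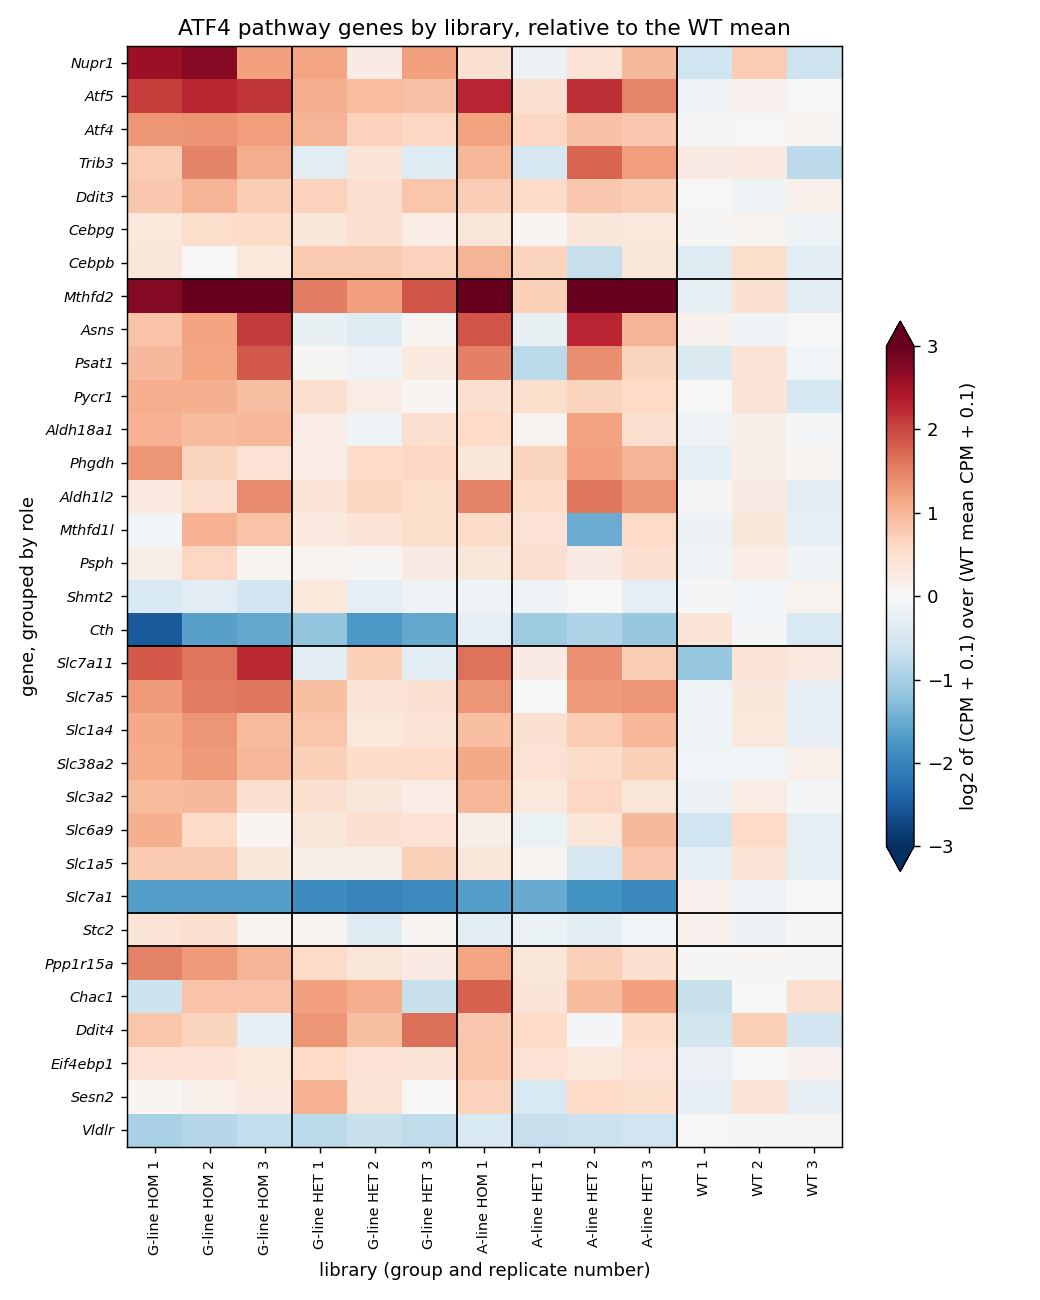
Each row is 1 of the 33 tested genes and each column 1 of the 13 libraries, with colour giving the log2 ratio of its CPM to the WT mean after adding 0.1 CPM to both (colours end at -3 and 3, and values beyond take the end colour). Horizontal lines separate transcription factors, enzymes, transporters, the secreted factor Stc2 and other targets, and within each role genes run from the highest to the lowest change in G-line HOM. Atf4 is above the WT mean in all 10 mutant libraries and Slc7a1 and Vldlr are below it in all 10, while Asns and Trib3 differ between libraries of A-line HET.

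Of the 7 transcription factor and regulator genes, 5 rose in G-line HOM, or 71.4% beside 13.1% of all tested genes. Atf4 stood at 102, 105 and 97.9 CPM in G-line HOM, 82.3, 65.6 and 62.7 CPM in G-line HET, 93.9 CPM in A-line HOM, 62.4, 75.3 and 71.0 CPM in A-line HET and 39.3, 40.1 and 42.7 CPM in WT. All 10 mutant libraries lay above all 3 WT libraries, and the 3 G-line HOM libraries were the highest of all. Against WT, the rise of Atf4 in G-line HOM was 1.32 ± 0.11 on the log2 scale (SE, edgeR adjusted p = 4.08e-06).

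Atf5, a related factor that is also controlled through its reading frames and is known for mitochondrial stress responses, stood at 35.4, 40.4 and 37.7 CPM in G-line HOM, 17.9, 15.9 and 15.5 CPM in G-line HET, 41.0 CPM in A-line HOM, 11.6, 38.8 and 23.4 CPM in A-line HET and 7.60, 9.23 and 8.34 CPM in WT. Every mutant library again exceeded every WT library, but A-line HET spread widely. The change in G-line HOM was 2.17 ± 0.33 (adjusted p = 0.000857). Ddit3, which encodes CHOP, the factor tied to cell death under prolonged stress, stood at 18.0, 20.6 and 17.0 CPM in G-line HOM, 16.5, 14.4 and 18.3 CPM in G-line HET, 17.0 CPM in A-line HOM, 15.1, 17.8 and 17.1 CPM in A-line HET and 10.05, 9.23 and 11.2 CPM in WT. Its mutant libraries formed a single range above WT (0.86 ± 0.13 in G-line HOM, adjusted p = 0.00022).

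Nupr1, a small stress-induced chromatin protein gene, stood at 22.7, 25.5 and 9.02 CPM in G-line HOM, 8.74, 4.53 and 8.98 CPM in G-line HET, 5.26 CPM in A-line HOM, 3.31, 5.01 and 7.50 CPM in A-line HET and 2.45, 6.47 and 2.42 CPM in WT. G-line HOM replicates 1 and 2 stood apart from the other libraries, and the group still exceeded WT (2.33 ± 0.53, adjusted p = 0.00922). Cebpg, a dimer partner of ATF4, rose by 0.48 ± 0.11 (adjusted p = 0.0039). Cebpb, another C/EBP factor of the network, was at 0.22 ± 0.30 (adjusted p = 0.641) and overlapped WT.

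Trib3, a pseudokinase gene that is a classical ATF4 and CHOP target and restrains the response, stood at 2.97, 4.95 and 3.76 CPM in G-line HOM, 1.32, 2.29 and 1.28 CPM in G-line HET, 3.54 CPM in A-line HOM, 1.18, 5.95 and 4.20 CPM in A-line HET and 2.06, 2.12 and 0.959 CPM in WT. G-line HOM libraries lay above WT without a call (1.17 ± 0.47, adjusted p = 0.0851), and G-line HET libraries lay within or near the WT range.

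**Figure D2:**
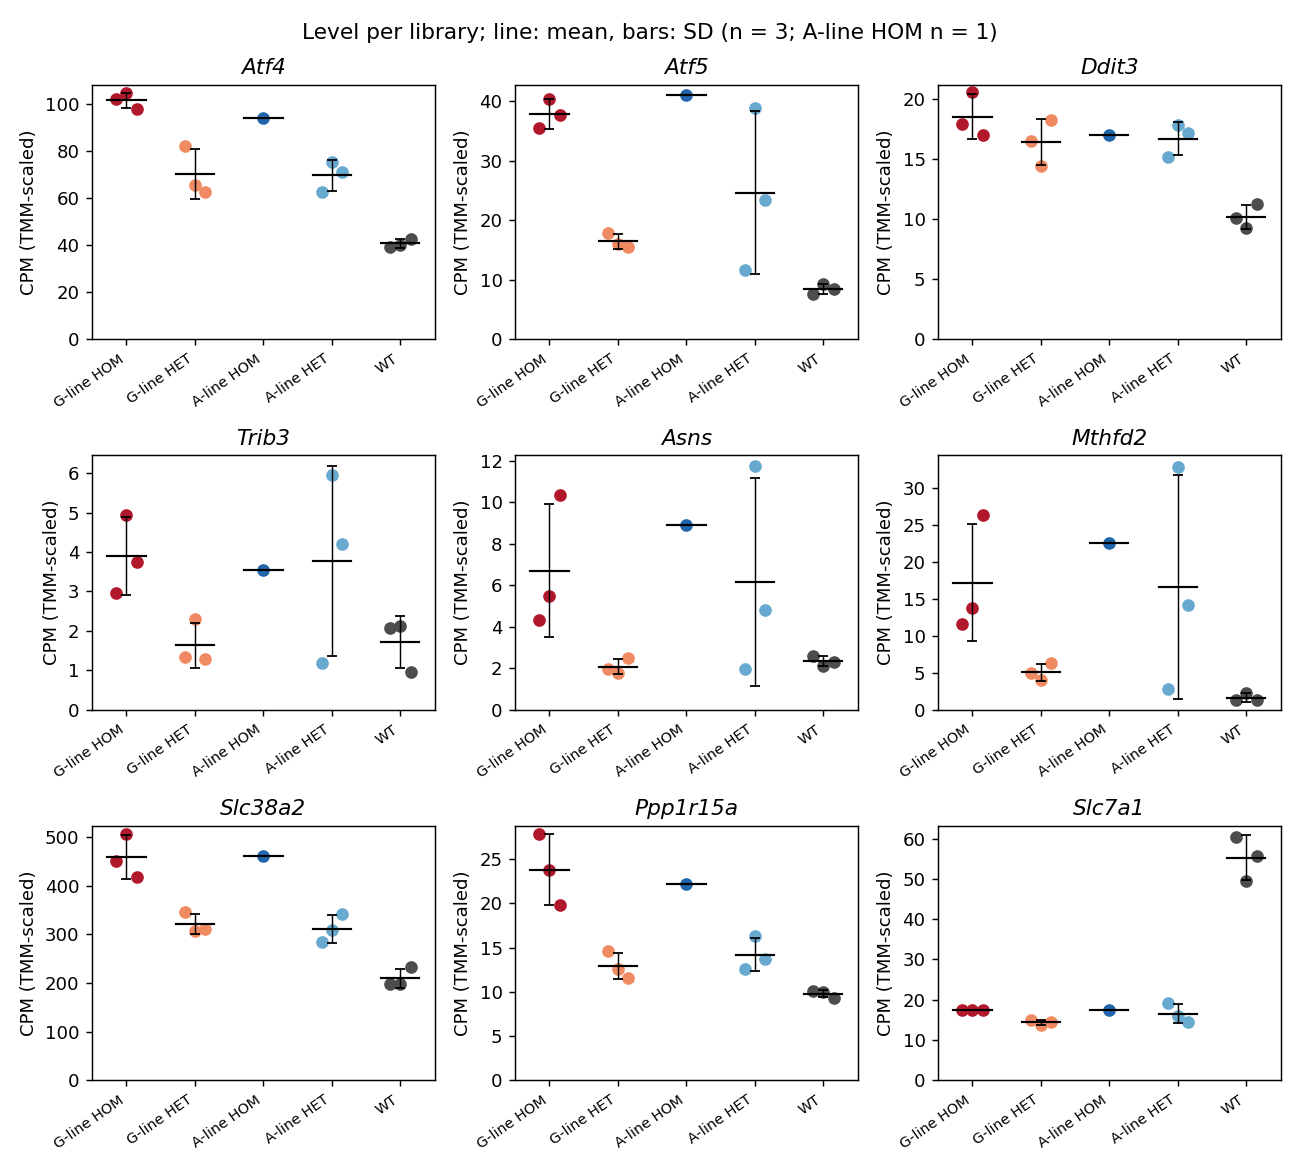
Each panel gives the CPM of a gene on a linear axis from 0, with a point per library, the group mean as a line and the SD as bars (n = 3, a single library in A-line HOM). Atf4, Slc38a2 and Ppp1r15a are highest in the homozygous libraries with little spread, Trib3, Asns and Mthfd2 spread widely in A-line HET, and Slc7a1 is at 13.8 to 19.2 CPM in all mutant libraries against 49.4 to 60.5 CPM in WT.

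Several of these genes carry the C/EBP-ATF response element (CARE) close to their start, the composite site that ATF4 binds together with a C/EBP partner. RefSeq promoter windows of build GRCm38.p6, from 250 bases before to 50 after each start, were available for 30 of the 36 genes and were searched on both strands for TGATGNAAN. The count files were made on GRCm39, so these windows were matched by gene symbol only. The motif was present for 9 of the 30 genes (30%), and for 395 of 13184 tested genes with a window (3%) and 3.95% of all 32851 windows. Its narrower form TGATGCAA, which the wider motif includes, was present for 7 of 30 and for 0.751% of tested genes. The list holds textbook ATF4 targets, so this is a property of the list and not of these hearts. The matches are shown because they fall on genes of all 3 outcomes in G-line HOM, 4 of 15 genes that rose (Nupr1, Pycr1, Slc1a4 and Slc7a11), 1 of 3 that fell (Vldlr) and 3 of 10 that were not called (Asns, Chac1 and Trib3). The ninth, Fgf21, was not tested. Capitals mark the motif, read 5′ to 3′ on the strand given.
Nupr1, chr7:126625565-126625589, + strand: gccctgtcTGATGCAATctggccct
Pycr1, chr11:120643835-120643859, - strand: cctgtgtaTGATGCAATgcacaagg
Slc1a4, chr11:20332702-20332726, + strand: gctggagaTGATGCAACgcaggagg
Slc7a11, chr3:50443645-50443669, + strand: ctgcatgaTGATGCAAAttctccag
Asns, chr6:7693216-7693240, - strand: cagccacaTGATGAAACttcccgca
Trib3, chr2:152344031-152344055, + strand: cgcccggcTGATGTAAAcctgagct
Chac1, chr2:119351040-119351064, - strand: ggcaggagTGATGCAACggcaggga
Fgf21, chr7:45615614-45615638, + strand: tggacggaTGATGCAATgggggggt
Vldlr, chr19:27216811-27216835, - strand: aggagcgcTGATGCAACtattgctg
The motif lay between position -201 (Vldlr) and position 14 (Trib3) relative to the annotated start. The window of Slc7a11 held a second copy on the other strand. No match in a window says only that these letters are not in it, and Atf5, Ddit3, Mthfd2 and Slc38a2 had none.

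In G-line HOM, 5 of the 11 enzyme genes were higher and 2 lower, or 45.5% and 18.2% beside 13.1% and 13.3% of all genes. The largest change belonged to mitochondrial one-carbon metabolism. Mthfd2, a mitochondrial methylenetetrahydrofolate dehydrogenase that is scarce in most adult tissues, stood at 11.5, 13.8 and 26.3 CPM in G-line HOM, 4.92, 3.97 and 6.30 CPM in G-line HET, 22.5 CPM in A-line HOM, 2.76, 32.8 and 14.2 CPM in A-line HET and 1.33, 2.27 and 1.29 CPM in WT. Every mutant library was above every WT library, and libraries of A-line HET covered the whole mutant range. The change in G-line HOM was 3.38 ± 0.79 (adjusted p = 0.013), and it was not called without WT replicate 1 (0.053) or WT replicate 3 (0.0537).

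Asns, asparagine synthetase and a well-studied gene of the amino acid response, stood at 4.32, 5.47 and 10.3 CPM in G-line HOM, 1.97, 1.77 and 2.49 CPM in G-line HET, 8.91 CPM in A-line HOM, 1.97, 11.7 and 4.79 CPM in A-line HET and 2.58, 2.12 and 2.29 CPM in WT. G-line HOM lay above WT and G-line HET overlapped it, and the test of G-line HOM just missed the threshold (1.52 ± 0.52, adjusted p = 0.0548, against 0.00477 in DESeq2).

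Serine synthesis runs through Phgdh, Psat1 and Psph. Psat1 stood at 6.79, 7.87 and 12.5 CPM in G-line HOM, 3.52, 3.07 and 4.21 CPM in G-line HET, 9.999 CPM in A-line HOM, 1.89, 9.21 and 5.48 CPM in A-line HET and 2.49, 4.54 and 3.21 CPM in WT. Its pattern over the libraries resembled that of Asns, and its rise in G-line HOM (1.40 ± 0.44, adjusted p = 0.0352) was lost on omission of 6 single libraries, with adjusted p up to 0.123. Phgdh, the entry enzyme, rose by 0.91 ± 0.28 (adjusted p = 0.027), but by only 0.58 without G-line HOM replicate 1 (adjusted p = 0.169), and Psph was at 0.31 ± 0.19 (adjusted p = 0.259).

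Shmt2, the mitochondrial enzyme that turns serine into glycine and one-carbon units, was lower in G-line HOM (14.6 against 19.9 CPM in WT; -0.45 ± 0.15, adjusted p = 0.0328). That call was lost without WT replicate 1 or 3 or G-line HOM replicate 1 or 3 (adjusted p = 0.0657 to 0.12). The mitochondrial folate genes Aldh1l2 and Mthfd1l were at 0.82 ± 0.32 (adjusted p = 0.0882) and 0.68 ± 0.44 (adjusted p = 0.291).

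Both proline synthesis genes rose. Pycr1, the last enzyme of that route, stood at 2.13, 2.12 and 1.88 CPM in G-line HOM, 1.40, 1.12 and 0.989 CPM in G-line HET, 1.37 CPM in A-line HOM, 1.42, 1.57 and 1.49 CPM in A-line HET and 0.945, 1.29 and 0.625 CPM in WT. The 3 G-line HOM libraries were the highest of the 13 (1.09 ± 0.29, adjusted p = 0.0117, and 0.0592 without WT replicate 3). Aldh18a1, which makes the proline precursor, rose by 0.999 ± 0.23 (adjusted p = 0.00588), with 19.1 ± 0.713 CPM in G-line HOM and 9.53 ± 1.09 CPM in WT (SD, n = 3 each).

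Cth, the transsulfuration enzyme that makes cysteine and is usually an ATF4-induced gene, moved the other way. It stood at 0.282, 0.613 and 0.657 CPM in G-line HOM, 0.870, 0.561 and 0.659 CPM in G-line HET, 1.71 CPM in A-line HOM, 0.946, 1.05 and 0.904 CPM in A-line HET and 2.79, 2.01 and 1.50 CPM in WT. The G-line and A-line HET libraries were all below WT, and the A-line HOM library was within its range. Cth fell by 2.05 ± 0.37 on the log2 scale in G-line HOM (adjusted p = 0.001).

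Of the 8 transporter genes tested, 5 rose and 1 fell in G-line HOM, or 62.5% and 12.5% beside 13.1% and 13.3% of all genes. The 5 include Slc7a11, which entered the test only through mutant libraries, so this share cannot be set squarely against that of all genes. Slc38a2, the neutral amino acid transporter SNAT2 that amino acid shortage induces, stood at 451, 507 and 418 CPM in G-line HOM, 346, 307 and 312 CPM in G-line HET, 461 CPM in A-line HOM, 284, 308 and 342 CPM in A-line HET and 198, 198 and 232 CPM in WT. It followed the order seen for Atf4, with homozygous libraries highest, heterozygous libraries between and WT lowest, and no overlap between these 3 levels. The change in G-line HOM was 1.13 ± 0.11 (adjusted p = 1.16e-05).

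Slc7a5, the light chain of the large neutral amino acid transporter, stood at 6.44, 7.87 and 7.94 CPM in G-line HOM, 4.95, 3.45 and 3.63 CPM in G-line HET, 6.63 CPM in A-line HOM, 2.60, 6.41 and 6.65 CPM in A-line HET and 2.32, 3.33 and 2.17 CPM in WT. It rose by 1.50 ± 0.29 in G-line HOM (adjusted p = 0.00177). Its heavy chain partner Slc3a2 rose by 0.80 ± 0.14 (adjusted p = 0.000985).

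Slc1a4, a transporter of alanine, serine and cysteine, stood at 5.94, 6.74 and 5.21 CPM in G-line HOM, 4.80, 3.32 and 3.52 CPM in G-line HET, 4.97 CPM in A-line HOM, 3.62, 4.55 and 5.32 CPM in A-line HET and 2.36, 3.33 and 2.21 CPM in WT. G-line HOM did not overlap WT (1.17 ± 0.22, adjusted p = 0.00145). Slc7a11, the cystine importer xCT, was near the limit of detection, with 22, 12 and 20 counts in G-line HOM, 2, 6 and 2 in G-line HET, 10 in the A-line HOM library, 2, 8 and 5 in A-line HET and 0, 5 and 4 in WT. It passed the count filter only through mutant libraries, and its call (2.54 ± 0.69, adjusted p = 0.0139) has to be read with that. The glutamine carrier Slc1a5 (0.66 ± 0.32, adjusted p = 0.174) and the glycine carrier Slc6a9 (0.67 ± 0.37, adjusted p = 0.21) overlapped WT.

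Slc7a1, the cationic amino acid transporter CAT1 that imports arginine and lysine, was the clearest exception. It stood at 17.45, 17.53 and 17.47 CPM in G-line HOM, 14.98, 13.8 and 14.5 CPM in G-line HET, 17.4 CPM in A-line HOM, 19.2, 15.9 and 14.5 CPM in A-line HET and 60.5, 49.4 and 55.8 CPM in WT. Heterozygous and homozygous libraries shared a narrow range far below WT. The log2 fold changes against WT were -1.66 ± 0.11 in G-line HOM (adjusted p = 1.3e-06), -1.94 ± 0.11 in G-line HET (4.64e-07), -1.66 ± 0.17 in A-line HOM (0.00014) and -1.75 ± 0.11 in A-line HET (1.4e-06).

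Among the 3 secreted factors, transcripts of Fgf21 and Gdf15 were rare in these ventricles. Fgf21, a metabolic hormone released by stressed muscle and liver, had 9, 7 and 0 counts in G-line HOM, 0, 0 and 0 in G-line HET, 0 in the A-line HOM library, 2, 3 and 0 in A-line HET and 0, 0 and 0 in WT. It failed the count filter. Over the group, G-line HOM stood at 5.28 times and A-line HET at 2.53 times the WT floor of 3 counts, with 1 library of each group at 0. Gdf15, a circulating marker of mitochondrial and heart stress, had 9, 5 and 7 counts in G-line HOM, 2, 1 and 2 in G-line HET, 5 in the A-line HOM library, 0, 6 and 3 in A-line HET and 0, 4 and 2 in WT. These counts were too few for the main test, as were those of the cationic transporter Slc7a3, with 41 counts over all libraries. Without a filter the adjusted p in G-line HOM against WT was 0.0502 for Fgf21, 0.269 for Gdf15 and 0.555 for Slc7a3. Stc2, a secreted glycoprotein gene of the response, was at 13.1 ± 1.80 CPM in G-line HOM and 10.4 ± 1.13 CPM in WT (SD, n = 3 each; adjusted p = 0.132).

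Among the 6 feedback and other targets, 2 rose and 1 fell in G-line HOM, or 33.3% and 16.7% beside 13.1% and 13.3% of all genes. Ppp1r15a, which encodes GADD34, the inducible phosphatase subunit that removes phosphate from eIF2, stood at 27.8, 23.8 and 19.9 CPM in G-line HOM, 14.6, 12.6 and 11.6 CPM in G-line HET, 22.2 CPM in A-line HOM, 12.6, 16.3 and 13.7 CPM in A-line HET and 10.05, 9.99 and 9.34 CPM in WT. All mutant libraries exceeded WT, and homozygous libraries exceeded heterozygous ones (1.28 ± 0.14 in G-line HOM against WT, adjusted p = 3.46e-05). Eif4ebp1, a translation repressor gene induced by ATF4, rose by 0.40 ± 0.09 (adjusted p = 0.0058). Chac1, a glutathione-degrading enzyme (0.51 ± 0.54, adjusted p = 0.545), and the mTORC1 inhibitor genes Sesn2 (0.17 ± 0.34, adjusted p = 0.752) and Ddit4 (0.49 ± 0.41, adjusted p = 0.441) overlapped WT. Vldlr, the very low density lipoprotein receptor gene, fell by 0.85 ± 0.09 on the log2 scale (adjusted p = 1.75e-05), with 307 ± 25.6 CPM in G-line HOM and 554 ± 16.5 CPM in WT (SD, n = 3 each).

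**Figure D3:**
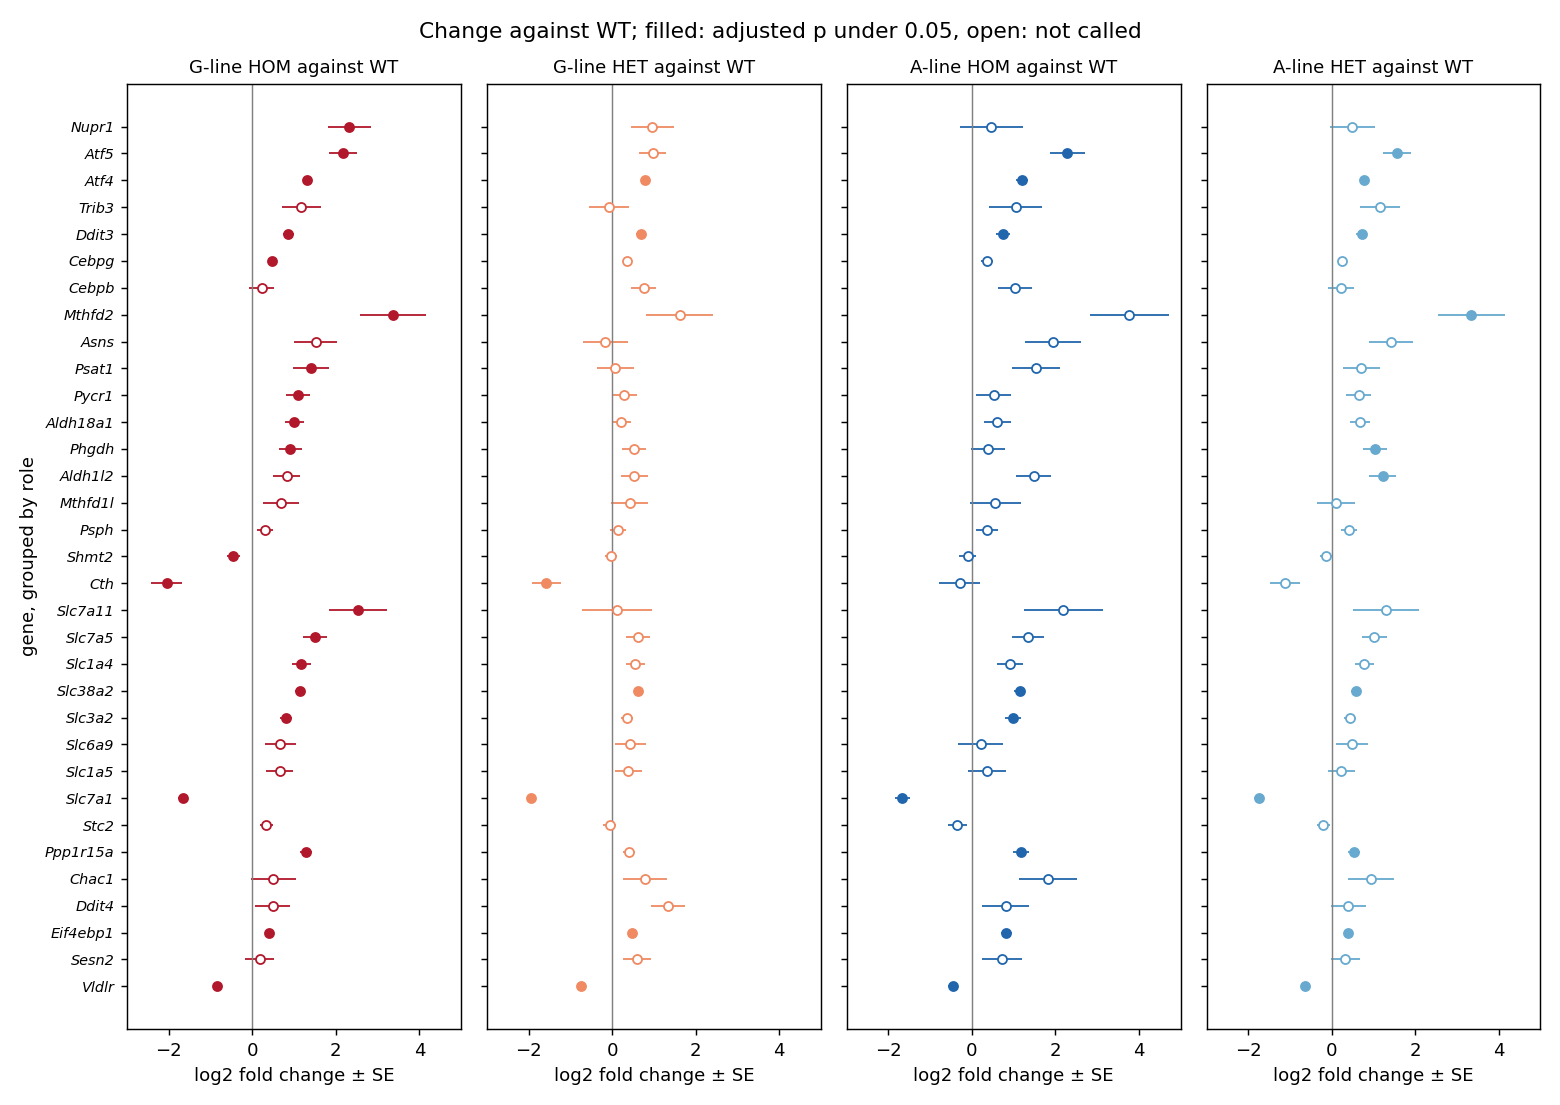
Points give the log2 fold change against WT with its SE for the 33 tested genes in the 4 mutant groups, filled where the adjusted p was under 0.05. Slc7a1 and Vldlr are filled and below 0 in all 4 panels, Atf4, Ddit3, Slc38a2 and Eif4ebp1 are filled and above 0 in all 4, and the A-line HOM panel rests on a single library.

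All 4 comparisons with WT share its libraries, so their values are given side by side and are not independent of each other. With a single S639G copy, 4 genes rose and 3 fell against WT, beside 3.97% and 3.54% of all tested genes called higher and lower (7.52% in all). Libraries did not overlap for 17 genes, 14 above and 3 below WT, against 31.5% of all genes. The 4 that rose were Atf4 (0.79 ± 0.11, adjusted p = 0.00057), Ddit3 (0.69 ± 0.13, 0.00442), Slc38a2 (0.62 ± 0.11, 0.0028) and Eif4ebp1 (0.48 ± 0.09, 0.0066). The 3 that fell were Slc7a1, Vldlr (-0.75 ± 0.08, 0.000169) and Cth (-1.58 ± 0.35, 0.0145), and the call of Cth was lost without WT replicate 1 (0.0849), G-line HET replicate 2 (0.0532) or G-line HET replicate 3 (0.0596). Asns, Psat1 and Trib3 were at -0.16, 0.07 and -0.08 and overlapped WT. Leaving out the shared libraries ended the calls of Ddit3, Slc38a2 and Cth (adjusted p = 0.0523 to 0.0919), and counting them as A-line HOM left 0 of 33 called, beside 0.0284% of all genes.

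A second copy of S639G was tested by G-line HOM against G-line HET, in which WT libraries enter only through the shared spread. There 7 of the 33 genes rose and 0 fell, beside 6.22% and 8.42% of all genes (14.6% in all). They were Ppp1r15a (0.88 ± 0.14, adjusted p = 0.00212), Atf4 (0.53 ± 0.10, 0.00585), Slc38a2 (0.51 ± 0.10, 0.00716), Slc7a11 (2.42 ± 0.68, 0.0297), Atf5 (1.20 ± 0.31, 0.0298), Aldh18a1 (0.78 ± 0.23, 0.0363) and Slc3a2 (0.45 ± 0.14, 0.0479). Slc7a11, with 2, 6 and 2 counts in G-line HET, passed the filter only through groups in which it was higher. Libraries of the 2 groups did not overlap for 18 genes, 15 of them above, against 35% of all tested genes. Asns (1.68 ± 0.53, adjusted p = 0.0563) and Psat1 (1.32 ± 0.43, 0.0638) lay above G-line HET in every G-line HOM library without a call. The genes already low in heterozygotes showed no further called fall, with Slc7a1 at 0.28 ± 0.11 (adjusted p = 0.111), Vldlr at -0.11 ± 0.08 (0.422) and Cth at -0.47 ± 0.39 (0.454). Of these 7 calls only that of Slc7a11 was kept with the shared libraries counted as A-line HOM. Calls over all genes became fewer there too. The number of calls was 3 on omission of G-line HET replicate 1 or G-line HOM replicate 1 or 2, beside 7.48%, 7.96% and 6.63% of all genes. It was 4 without G-line HET replicate 3 (8.32% of all genes). It was 12 without A-line HET replicate 1 (17.1% of all genes), which enters only through the shared spread. Calls of Atf4, Slc38a2 and Ppp1r15a held on omission of each of the 13 libraries in turn (adjusted p up to 0.0399). They did not hold with the shared libraries counted as A-line HOM.

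**Figure D4:**
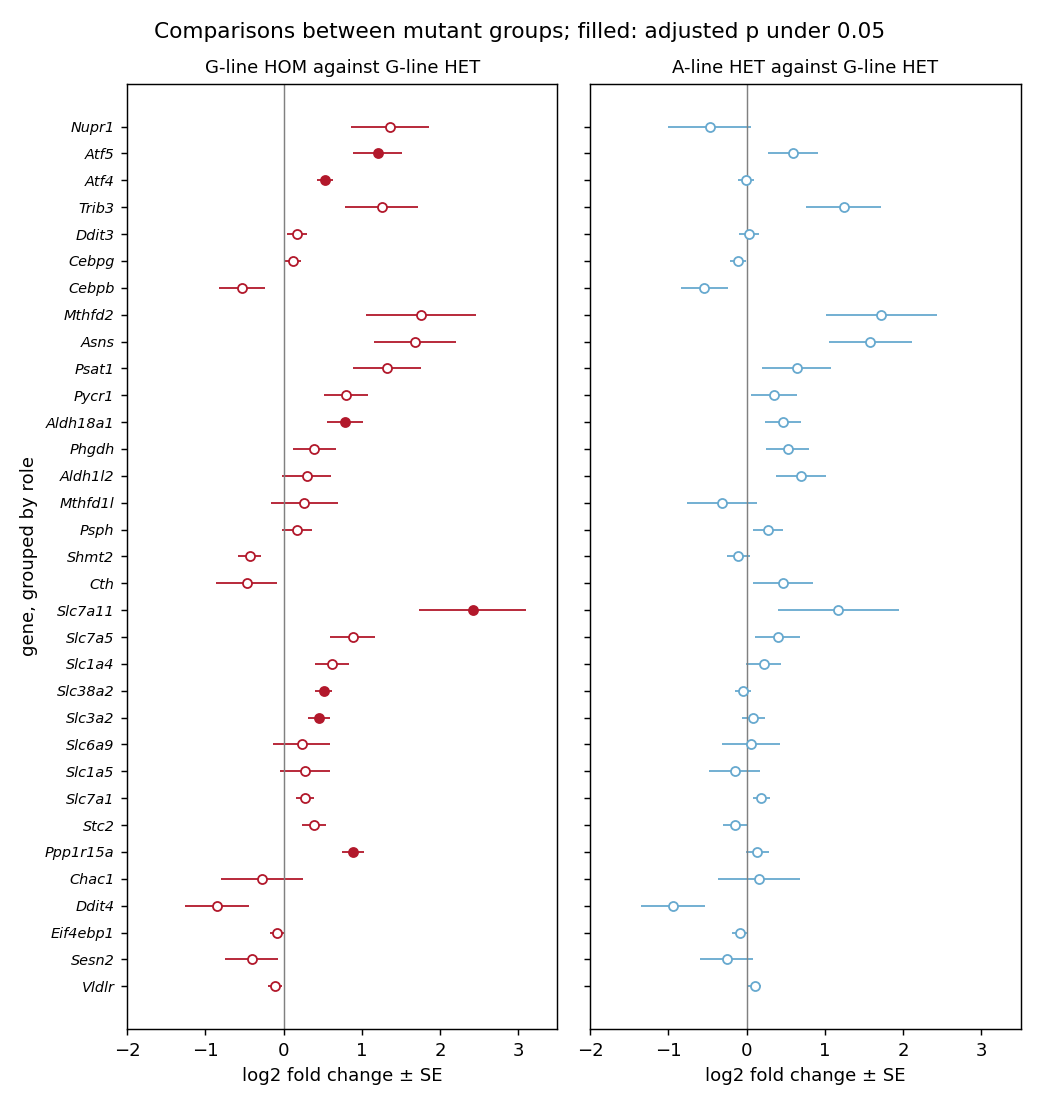
Points give the log2 fold change with its SE for the 33 tested genes in G-line HOM against G-line HET and in A-line HET against G-line HET, filled where the adjusted p was under 0.05. In the first panel 7 genes are filled, all above 0, and in the second none is filled and Atf4 is at -0.01.

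The single A-line HOM library, with both S637A copies, gave 7 genes higher and 2 lower than WT, beside 2.82% and 1.86% of all genes (4.68% in all). This library lay outside the WT range for 29 genes, 25 above and 4 below, against 67.8% of all genes. Those higher were Atf4 (1.21 ± 0.14, adjusted p = 0.000329), Atf5 (2.29 ± 0.41, 0.0126), Ddit3 (0.74 ± 0.17, 0.0281), Slc3a2 (0.99 ± 0.20, 0.0105), Slc38a2 (1.14 ± 0.14, 0.000512), Ppp1r15a (1.18 ± 0.19, 0.00332) and Eif4ebp1 (0.82 ± 0.13, 0.00291). Those lower were Slc7a1 and Vldlr (-0.46 ± 0.12, adjusted p = 0.0471, with 403 CPM in A-line HOM and 554 ± 16.5 CPM in WT). Mthfd2 had a larger fold change in this library than any of these (3.77 ± 0.94) and was not called (adjusted p = 0.0607). The test assumes that this library varies like those of other groups. Of these calls, Ddit3 was lost without WT replicate 1 or 2 (0.067 and 0.0642), Vldlr was lost on omission of 9 single libraries (up to 0.118), and the count rose to 14 without A-line HET replicate 1. With the shared libraries counted as A-line HOM or in both groups, 0 of 33 were called. Left out, they took the count to 4. The same library held Atf3, an immediate-early and stress-induced factor, at 115 CPM against 1.59 to 3.82 CPM in WT. Atf3 was above the WT range in the other mutant groups too. It stood at 12.8 to 16.3 CPM in G-line HOM, 7.55 to 23.2 in G-line HET and 6.76 to 12.6 in A-line HET. The part of the high Atf3 state of the A-line HOM library in these values was not tested.

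Heterozygous S637A hearts had 9 genes higher and 2 lower than WT, beside 3.99% and 3.97% of all genes (7.96% in all). Libraries did not overlap for 16 genes, 13 above and 3 below WT, against 26.1% of all genes. With the shared libraries counted as A-line HOM or in both groups 0 of 33 were called, and with them left out 3. Atf4 (0.77 ± 0.11, adjusted p = 0.000688), Atf5 (1.56 ± 0.33, 0.0174), Ddit3 (0.72 ± 0.13, 0.00381), Slc38a2 (0.58 ± 0.11, 0.0045), Ppp1r15a (0.54 ± 0.14, 0.0331) and Eif4ebp1 (0.40 ± 0.10, 0.0198) rose. So did the folate and serine enzyme genes Mthfd2 (3.35 ± 0.79, 0.0366), Aldh1l2 (1.22 ± 0.32, 0.0473) and Phgdh (1.04 ± 0.29, 0.0384). Slc7a1 and Vldlr (-0.65 ± 0.08, 0.000522) fell. The number called was 5 without WT replicate 1, 6 without WT replicate 3, 7 without G-line HOM replicate 2, 17 without A-line HET replicate 1, 7 without A-line HET replicate 2 and 5 without A-line HET replicate 3. Beside these, 3.82%, 3.68%, 6.81%, 11.6%, 4% and 3.97% of all genes were called, in that order. Aldh1l2, Mthfd2, Phgdh and Ppp1r15a were each lost on omission of 6 to 10 single libraries (adjusted p up to 0.159), Atf5 of 3 and Eif4ebp1 of 2. Without the 3 libraries that held atrial transcripts the count was 3, namely Atf4, Slc7a1 and Vldlr, beside 3.78% of all genes.

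The libraries of A-line HET differed among themselves in one set of genes. Replicate 1 was the lowest of the 3 libraries for 23 of the 33 genes and replicate 2 the highest for 18, against 37.9% and 31.4% of all tested genes. Between the highest and lowest A-line HET library, levels differed 11.9-fold for Mthfd2, 5.95-fold for Asns, 5.03-fold for Trib3, 4.87-fold for Psat1 and 3.35-fold for Atf5. The same ratio was 1.21 for Atf4, 1.18 for Ddit3 and 1.20 for Slc38a2. For 7 genes replicate 2 was the lowest A-line HET library, namely Mthfd1l (1.63 CPM), Cebpb (2.68 CPM), Slc1a5 (15.8 CPM), Ddit4, Eif4ebp1, Stc2 and Psph. Replicate 2 was one of the 2 libraries with high Arntl, and the part of that state was not tested. In WT, replicate 2, the library with atrial transcripts, was the highest for 21 of the 33 genes, against 33% of all tested genes.

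The 2 alleles at 1 copy each were set against each other in A-line HET against G-line HET. None of the 33 genes was called by edgeR, beside 0.0284% of all genes (0.0114% higher and 0.0171% lower), with 4 at an unadjusted p under 0.05 and 1, Asns, called by DESeq2 (1.56, adjusted p = 0.0481). Libraries did not overlap for 5 genes, 3 above and 2 below G-line HET, against 17.4% of all genes. Atf4 differed by -0.01 ± 0.10 and Slc38a2 by -0.04 ± 0.10, while Asns was at 1.58 ± 0.53 (adjusted p = 0.261), Trib3 at 1.24 ± 0.48 (0.304) and Mthfd2 at 1.72 ± 0.71 (0.355). Ddit4 went the other way (-0.94 ± 0.41, adjusted p = 0.372), with all A-line HET libraries below all G-line HET libraries. Without A-line HET replicate 1, 4 genes were called higher in A-line HET: Atf5 (adjusted p = 0.0134), Asns (0.0239), Trib3 (0.0257) and Mthfd2 (0.0333). In that fit the share of all genes called in either direction also rose, to 3.45%. The effect of the second copy was also compared between the lines, with a single A-line HOM library on one side, which limits this test. Of the 33 genes 0 differed by edgeR, beside 0.0171% of all tested genes, and 2, Cebpb (difference 1.35) and Eif4ebp1 (0.51), had an unadjusted p under 0.05.

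Other genes around the pathway gave the context of these values in G-line HOM against WT. Among 19 genes of the eIF2 kinases, eIF2 and its regulators, 3 rose and 3 fell (15.8% each way), near the 13.1% and 13.3% of all genes called higher and lower, and the median log2 fold change was 0.05. Dele1 and Oma1, whose products relay mitochondrial stress to the kinase HRI, fell to 48.3 ± 6.26 CPM in G-line HOM against 89.6 ± 6.09 CPM in WT (-0.89 ± 0.12, adjusted p = 0.000114) and to 22.6 ± 2.72 CPM in G-line HOM against 37.9 ± 1.90 CPM in WT (-0.75 ± 0.12, 0.00059; SD, n = 3 each). In G-line HET they were at 89.6 ± 1.13 and 32.9 ± 1.61 CPM and were not called against WT (adjusted p = 1 and 0.368). Against G-line HET, G-line HOM was lower in both (-0.89 ± 0.12, adjusted p = 0.0015, and -0.54 ± 0.12, 0.0121). The constitutive eIF2 phosphatase subunit gene Ppp1r15b (0.46 ± 0.09, 0.00182) and the endoplasmic reticulum kinase gene Eif2ak3 (0.45 ± 0.12, 0.0135, lost without G-line HOM replicate 1 at 0.0587) rose. HRI itself, Eif2ak1, was at 0.05 ± 0.10 (0.747).

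Cytosolic aminoacyl-tRNA synthetases, which load amino acids onto tRNA and include several ATF4 targets, had 7 genes higher and 1 lower of 21 tested with the tRNA exporter Xpot, or 33.3% and 4.76% beside 13.1% and 13.3% of all genes, and a median of 0.13. The calls with the smallest adjusted p were Cars (0.73 ± 0.12, adjusted p = 0.000576), Nars (0.69 ± 0.10, 0.000183), Aars (0.66 ± 0.11, 0.000718) and Lars (0.52 ± 0.10, 0.00136). Of 33 other reported ATF4 or CHOP targets 9 rose and 5 fell, or 27.3% and 15.2% beside 13.1% and 13.3% of all genes, with a median of 0.12. Bcl2l11, the cell death gene BIM (1.19 ± 0.15, 0.000104), the autophagy receptor gene Sqstm1 (0.65 ± 0.09, 0.000226) and the mitochondrial enzyme gene Pck2 (0.71 ± 0.12, 0.000767) rose, and the glutamine transporter gene Slc38a3 fell (-0.94 ± 0.12, 8.64e-05).

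Of 21 genes controlled by ATF6 and XBP1, or acting in that chaperone arm of the unfolded protein response, 2 rose and 6 fell in homozygous S639G hearts. That is 9.52% and 28.6%, beside 13.1% and 13.3% of all genes, and the list's median was 0.04 with 11 of 21 values above 0. In G-line HET 1 rose and 5 fell, beside 3.97% and 3.54% of all genes. In the A-line HOM library 0 rose and 5 fell, beside 2.82% and 1.86%, and in A-line HET 0 rose and 7 fell, beside 3.99% and 3.97%. Atf6 (0.65 ± 0.10, adjusted p = 0.000411) and Edem1 (0.44 ± 0.09, 0.00274) were the genes that rose in G-line HOM, and Canx (-0.43 ± 0.10, 0.00448) and Sel1l (-0.35 ± 0.08, 0.00457) were among those that fell. A list of 12 genes held mitochondrial chaperones and proteases together with Tfam, which is neither, and had a median of -0.22. Of these 12, 1 rose and 4, Clpx (-0.64 ± 0.11, 0.000819), Afg3l2 (-0.56 ± 0.12, 0.00249), Dnaja3 (-0.55 ± 0.14, 0.00954) and Hspd1 (-0.73 ± 0.18, 0.0101), fell in G-line HOM, or 8.33% and 33.3% beside 13.1% and 13.3% of all genes. Counting the shared libraries as A-line HOM leaves a single WT library. Most calls against WT in these further lists were then lost, as were most calls over all genes. The loss therefore says nothing particular about any of the lists.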

How the data were processed

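Whole-tissue RNA-seq counts of left ventricle were analysed. Raw counts by gene symbol, not normalized, were deposited by the authors in 3 tables, 1 per line and 1 for WT. Per the submitters' processing notes reads were handled with bcl2fastq 2.20.0.422, Trimmomatic 0.39 and STAR 2.7.4a on mm39 (GRCm39). Neither the counting program nor its annotation and strand setting is given in the sources used here, so reads of overlapping or antisense genes cannot be told apart.

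Groups came from the sample titles. Genes were kept at 0.4217 CPM (10 counts in the median library) or more in at least 3 libraries and at least 15 counts in all, which left 17588. With edgeR 4.0.16 (R 4.3.3), counts were scaled by TMM and fitted in 1 robust quasi-likelihood model with a mean per group over 13 libraries (8 residual degrees of freedom). Comparisons used its two-sided F test with Benjamini-Hochberg adjustment over all tested genes and a threshold of 0.05. Fold changes are log2 ± SE, and p-values given without a name are these adjusted p-values. CPM use the TMM factors and the counts of tested genes. Floors cover counting error only. Each SE includes the spread among libraries in the fit, and each SD is the spread among the libraries of a group. The procedure was tested on simulated data.

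The members, further lists and left-out libraries were chosen with earlier results of these data known. Values per library are given for Atf4, Atf5, Ddit3, Trib3, Asns, Fgf21 and Gdf15 and for members called with a log2 fold change of at least 1 in size in G-line HOM against WT or G-line HET. Up to 4 called genes of each further list are named by smallest adjusted p. Others, including Vldlr, Aldh1l2, Eif2ak1 and Atf3, were named after their values were seen. A planned ranking of genes by likeness to Atf4 is not given, because libraries fall into separate groups. Alternatives were RLE size factors, DESeq2 1.42.0, other filters, other library sets and the replicate number as a block. Calls of the further lists under another use of the shared libraries were looked at after seeing the data.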

Additional observations from a re-analysis of the deposited data

Results flagged for a closer look

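Bcl2l11, which encodes the cell death protein BIM and is a reported CHOP target outside the list of 36, differed between the alleles at 1 copy each. It averaged 49.4 ± 8.24 CPM in A-line HET and 23.1 ± 4.40 CPM in G-line HET (SD, n = 3 each), with every A-line HET library above every G-line HET library. The log2 fold change was 1.10 ± 0.15 (edgeR, adjusted p = 0.0365), and it was 1 of 5 genes called in that comparison among 17588. The A-line HOM library stood at 59.9 CPM, G-line HOM at 35.99 ± 1.38 CPM and WT at 15.8 ± 2.57 CPM. Over the 24 alternatives the log2 fold change stayed between 1.005 and 1.27. The call was lost with the replicate block (0.127), with only these groups in the fit (0.0879), without the libraries with atrial transcripts (0.119) or shifted clock genes (0.153), and with the shared libraries as A-line HOM (0.495) or in both groups (0.39). It was also lost on omission of 1 of 6 single libraries, WT replicate 3, G-line HET replicate 1 or 3, G-line HOM replicate 2 or A-line HET replicate 2 or 3 (0.0527 to 0.225). DESeq2 gave an adjusted p of 4.31e-07.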

How the results depend on the processing

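No called gene named here changed sign under any of the 24 alternatives. Of 2550 values recomputed for called genes 2072 kept their call and 478 lost it. The number of the 33 tested members called was 21 in G-line HOM, 7 in G-line HET, 9 in A-line HOM and 11 in A-line HET against WT, 7 in G-line HOM against G-line HET and 0 in A-line HET against G-line HET. With the shared libraries as A-line HOM these became 4, 0, 0, 0, 1 and 0. Left out, they gave 14, 4, 4, 3, 4 and 0, and kept in both groups 19, 3, 0, 0, 3 and 0. Fewer WT libraries, or a mixed A-line HOM group in the shared spread, enter these fits by construction. With only the compared groups the counts were 22, 11, 15, 6, 12 and 0. DESeq2 gave 24, 10, 13, 15, 12 and 1. Without the libraries with atrial transcripts they were 18, 10, 8, 3, 3 and 0, and without those with shifted clock genes 22, 9, 11, 7, 7 and 0. Leaving out single libraries gave 16 to 23, 6 to 9, 7 to 14, 5 to 17, 3 to 12 and 0 to 4. The share of all genes called moved with these fits. It was 6.63 to 17.1% in G-line HOM against G-line HET and 0 to 3.45% in A-line HET against G-line HET. RLE size factors and both other filters kept each count within 1.5 times. For the other changes the cause was not tested.

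The fit with the replicate block gave 21, 7, 7, 8, 7 and 0. Same-numbered libraries did not deviate together in all pairs of any comparison (correlations of deviations between -0.394 and 0.25). With so few libraries per group this check cannot exclude a pairing, and the main fit used none. The block ended the calls of Ddit3 and Vldlr in A-line HOM, Phgdh, Mthfd2 and Aldh1l2 in A-line HET, and Aldh18a1 in G-line HOM against G-line HET (adjusted p = 0.0543, 0.137, 0.0696, 0.058, 0.0557 and 0.0544). Depth limits Fgf21, Gdf15, Slc7a3 and Slc7a11, which held at most 98 counts each over all 13 libraries.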
